A study of Homo sapiens with 40 samples.

Results

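The genes described here encode dual-specificity phosphatases (DUSPs) that act on MAP kinases, namely DUSP1, DUSP2, DUSP4, DUSP5, DUSP6, DUSP7, DUSP8, DUSP10, DUSP14 and DUSP16. They were taken by name from the RNA-seq gene counts, and all 10 were found among 44584 rows. RNA was measured in BT474, a HER2-amplified, trastuzumab-sensitive breast cancer cell line, and in BT474R, a trastuzumab-resistant line that is 1 clone derived from BT474 by several weeks of growth in trastuzumab. Serum-starved cells were collected at the end of starvation (T0), or after 1, 12 or 24 h in fresh starvation medium with epidermal growth factor (EGF), heregulin (HRG) or water as vehicle. Each line had 10 groups of 2 libraries (20 groups and 40 libraries in all), and all cells, vehicle included, had been starved and, except at T0, given fresh medium. The ligands were not used at the same concentration, so HRG against EGF compares the treatments as they were given. The libraries of a group are known only by a replicate number, so the p-values measure the spread between these samples, which may be technical.

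DUSPs of this family remove phosphate from both the threonine and the tyrosine of the activation loop of MAP kinases and thereby switch them off. Transcription of several of them is induced by the same MAP kinase signal that they end, which makes them feedback inhibitors and common readouts of ERK activity in growth factor-treated epithelial cells. EGF binds EGFR, and HRG binds HER3 and HER4, and these receptors signal through dimers with HER2 to the RAS, RAF, MEK and ERK cascade. By role, DUSP1, DUSP2, DUSP4 and DUSP5 are inducible nuclear enzymes, DUSP6 and DUSP7 are cytoplasmic enzymes that prefer ERK, DUSP8, DUSP10 and DUSP16 prefer JNK and p38, and DUSP14 is a small atypical member.

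The 20 BT474 libraries held 19200632 to 29098915 counts and the 20 BT474R libraries held 16794594 to 33387936, so that 3 counts correspond to at most 0.147 and 0.180 CPM (counts scaled to a common library size, the usual normalised read count), respectively. Both lines had the RNAs of HER2-positive luminal cells: ERBB2 was at 5994 to 8140 CPM in BT474 and at 6231 to 10546 CPM in BT474R. The luminal factor GATA3 was at 307 to 546 CPM in BT474 and at 10.6 to 55.5 CPM in BT474R. Of 10 markers of other cell types, PTPRC, CD3E, PDGFRB, PECAM1, COL1A2 and KRT14 had no more than 7 counts in any library, while VIM was at 22.5 to 98.4 CPM and COL1A1 at 75.0 to 295 CPM over both lines. The HRG-BT474R libraries at 24 h were the least alike of all pairs, with a median chi-square over genes of 2.19 against 0.571 to 1.42 in the other 19 groups. Calls at that point that were lost without either of these libraries are given with the values left. Calls gained when 1 of them was left out are counted below but not named. For DUSP8, DUSP14 and DUSP16 the count table has further rows with a number added to the name, and the row with the plain name held 41.2%, 89.7% and 32.8% of the gene's counts, respectively. Values below are of the plain rows. The sums over all rows are given where they change a call of these 3 genes, and 1 call of another member, a difference between lines for DUSP5, also changed when the rows of every such gene were summed.

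Each ligand was set against its time-matched vehicle, and a gene was called where edgeR's quasi-likelihood test gave a Benjamini-Hochberg adjusted p below 0.05 over all genes tested (25146 in BT474, 24287 in BT474R). All 10 members passed the low-count filter in both lines. At 1 h, EGF raised 7 of 10 members in BT474 (DUSP1, DUSP4, DUSP5, DUSP6, DUSP8, DUSP10 and DUSP14), where 1.65% of all genes tested were called higher. HRG raised the same 7 and also DUSP2 and DUSP16 in BT474, where 2.16% of genes were called higher, and DUSP7 fell, where 0.604% were called lower. In BT474R, EGF raised 6 members at 1 h (0.416% of genes higher), which were those of EGF-BT474 without DUSP14. HRG raised DUSP5, DUSP6 and DUSP10 in BT474R at 1 h, where 0.169% of genes were called higher. These 2 BT474R counts rested on single libraries, and so did the HRG-BT474 calls of DUSP2, DUSP7 and DUSP16, as given with each gene below. For EGF-BT474R the count was 3 without vehicle replicate 1, vehicle replicate 2 or EGF replicate 1 and 4 without EGF replicate 2. For HRG-BT474R it was 1 without vehicle replicate 1 or HRG replicate 1 and 2 without either of the others. The median log2 fold change of the 10 members at 1 h was 0.74 (EGF) and 0.79 (HRG) in BT474 and 0.33 (EGF) and 0.22 (HRG) in BT474R, and that of all genes tested lay between -0.01 and 0.00.

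At later times fewer members were called above vehicle, and DUSP4, DUSP5 and DUSP6 made up most of them. In BT474R the counts fell by less than in BT474, and those at 1 h rested on single libraries. The median log2 fold change of the members in EGF-BT474R was 0.33, 0.36 and 0.13 at 1, 12 and 24 h. In HRG-BT474R it was 0.22, 0.04 and 0.07, in EGF-BT474 0.74, 0.20 and 0.24, and in HRG-BT474 0.79, 0.18 and 0.16. In BT474, 3 members were higher at 12 h of EGF (9.04% of genes higher, 6.99% lower) and 4 at 24 h (9.71% and 6.65%). With HRG, 4 were higher at 12 h (13.3% of genes higher, 12.5% lower), and 4 were higher and 2 lower at 24 h (12.5% and 11.6%). In BT474R, EGF left 5 members higher and 1 lower at 12 h (6.85% of genes higher, 5.13% lower) and 4 higher and 3 lower at 24 h (9.95% and 7.37%), of which DESeq2 called 3 and 2, without DUSP7 and DUSP1. HRG-BT474R had 2 members higher at 12 h (2.38% of genes higher, 1.73% lower), and 2 higher and 1 lower at 24 h (1.89% and 0.889%). The number called at 24 h was 7 without EGF replicate 2 in EGF-BT474, 3 without vehicle replicate 2 or HRG replicate 1 in HRG-BT474, and in HRG-BT474R 5 without HRG replicate 1 and 1 without vehicle replicate 1 or HRG replicate 2. At 12 h in HRG-BT474R it was 1 without vehicle replicate 1. DUSP6 was called higher in all 12 ligand comparisons, DUSP5 in 11 and DUSP4 in 10, whereas DUSP1 was called higher only at 1 h. HRG against EGF in BT474 at 24 h was the 1 ligand comparison in which edgeR called no member (1 at an unadjusted p below 0.05, 0 with DESeq2; 0.768% of genes called in either direction). Since EGF and HRG share their vehicle libraries, their effects in a line are set side by side and not correlated. In these bulk cultures, fewer cells that express a gene and less RNA per cell cannot be told apart.

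**Figure D1:**
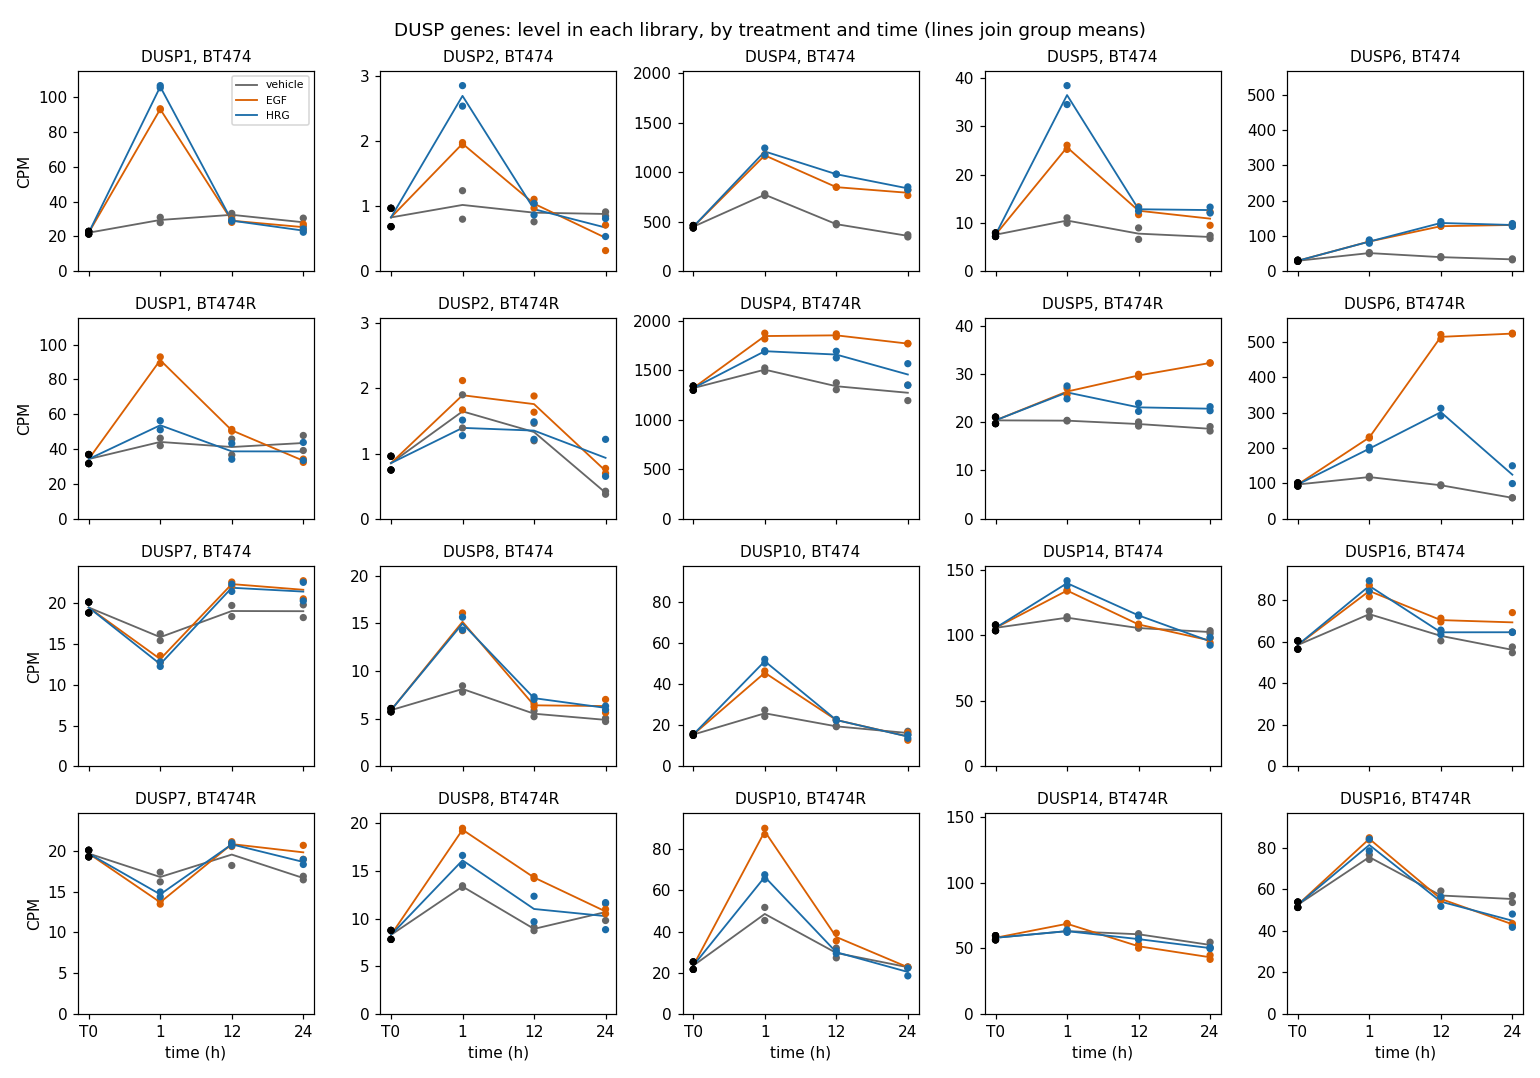
Level of each DUSP gene in CPM (vertical axis, starting at 0 and scaled per gene) at T0 and at 1, 12 and 24 h (horizontal axis, categories not drawn to scale) in BT474 and BT474R, where points are single libraries, 2 per group, lines join group means, and colours mark vehicle, EGF and HRG. DUSP1 in BT474 peaks at 1 h of either ligand (92.8 to 107 CPM) and is no longer above vehicle at 12 h, while DUSP6 in EGF-BT474R climbs to 523 and 525 CPM at 24 h.

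**Figure D2:**
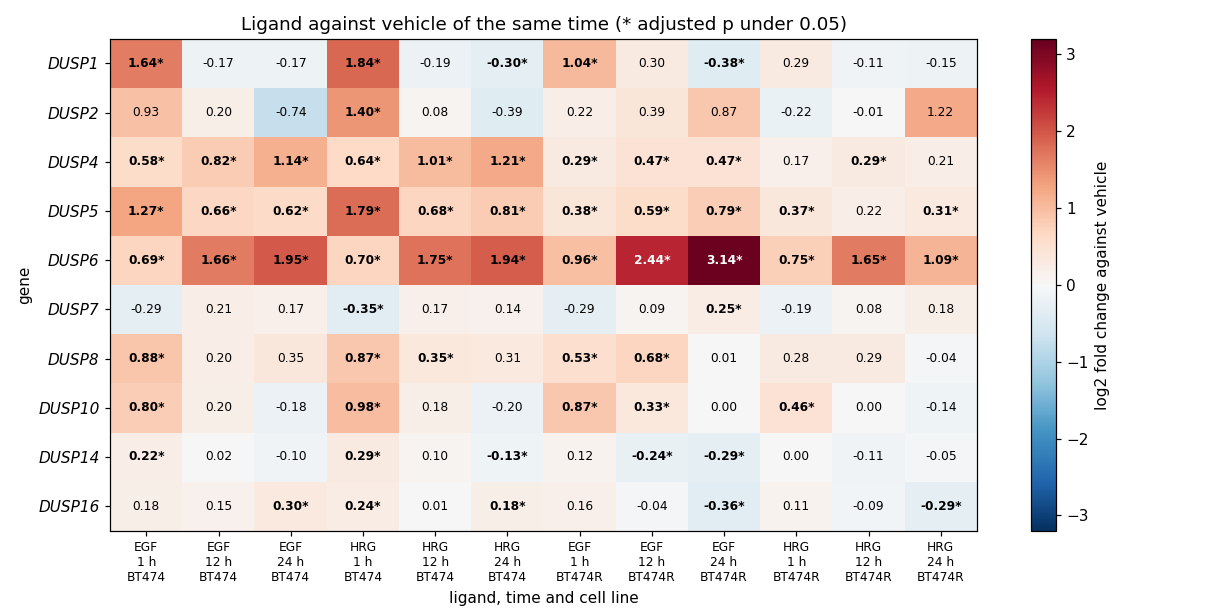
Log2 fold change of each DUSP gene (rows) for ligand against the vehicle of the same time in each line (columns), as printed and coloured in each cell, where an asterisk marks an edgeR adjusted p under 0.05. DUSP6 is called in all 12 columns, and DUSP1 is called higher only at 1 h, where HRG-BT474R is not called.

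DUSP1 (also MKP1) is the archetype of the immediate early nuclear phosphatases and acts on p38, JNK and ERK. In BT474, DUSP1 was at 21.3 and 22.9 CPM at T0, and at 1 h it reached 30.9 and 27.9 in vehicle, 92.8 and 93.3 under EGF and 105 and 107 under HRG. Both ligand groups lay far above vehicle and T0 without overlap. The rise was 3.12-fold with EGF (log2 fold change 1.64, SE 0.07, edgeR adjusted p = 9.35e-21) and 3.58-fold with HRG (1.84, SE 0.07, edgeR adjusted p = 1.84e-22). In BT474R the vehicle libraries at 1 h had 42.0 and 46.3 CPM, those with EGF had 89.2 and 92.9, and those with HRG had 56.3 and 51.1. EGF thus brought DUSP1 in BT474R to nearly the level it had in EGF-BT474, from a higher start, with a log2 fold change of 1.04 (SE 0.12, edgeR adjusted p = 1.34e-05). The HRG libraries of BT474R also lay above their vehicle, but the difference of 0.29 (SE 0.12) did not pass the test across all genes (edgeR adjusted p = 1). The ligands differed directly in BT474R, where DUSP1 was lower with HRG than with EGF by a log2 difference of -0.76 (SE 0.12, edgeR adjusted p = 0.00786; 0.0494% of genes called in either direction), and the call was lost without HRG replicate 2 (-0.69), EGF replicate 1 (-0.77) or EGF replicate 2 (-0.74). At 1 h, HRG acted less on DUSP1 in BT474R than in BT474, by -1.57 (SE 0.15, edgeR adjusted p = 3.74e-09). For EGF the difference between lines had the same sign but was not called (-0.62, SE 0.15, edgeR adjusted p = 0.0959).

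After 1 h, DUSP1 was not called higher than vehicle in either line. In EGF-BT474R at 12 h it had 51.3 and 50.3 CPM against 36.6 and 45.8, a difference of 0.30 that was not called (edgeR adjusted p = 0.141). In BT474 at 12 h, vehicle had 31.6 and 33.2 CPM, EGF 28.1 and 30.0, and HRG 29.3 and 28.7, with no call. At 24 h DUSP1 had fallen below vehicle in HRG-BT474 (22.4 and 24.3 against 25.7 and 30.5 CPM; -0.30, SE 0.08, edgeR adjusted p = 0.00335) and in EGF-BT474R (34.3 and 32.4 against 39.2 and 47.8 CPM; -0.38, SE 0.13, edgeR adjusted p = 0.0427). Both of these small differences depended on single libraries. The HRG-BT474 call was lost without vehicle replicate 2 (-0.16) or HRG replicate 1 (-0.25), and the EGF-BT474R call without vehicle replicate 2 (-0.23), EGF replicate 1 (-0.43) or EGF replicate 2 (-0.33) and with DESeq2 (adjusted p = 0.0684). The loss of the effect between 1 and 24 h was itself tested and was called in EGF-BT474, HRG-BT474 and EGF-BT474R.

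The promoters of DUSP1 and DUSP8 are printed here because they hold a full cyclic AMP response element, and that of DUSP6, which was called higher at every time, is set beside them. With all its rows summed, DUSP8 was also called higher at 24 h in BT474 with either ligand. Its plain row was called higher at 12 h in EGF-BT474R and HRG-BT474. The plain rows of DUSP2, DUSP10 and DUSP14 were, like those of DUSP1 and DUSP8, called higher at 1 h and not at 24 h, and their windows hold no full element. Each runs from 250 bases before to 50 after the annotated start of the gene, 5′ to 3′ on the gene's own strand, from RefSeq on GRCh38.p14: DUSP1 at chr5:172771146-172771445, DUSP8 at chr11:1572222-1572521 and DUSP6 at chr12:89352452-89352751, all on the minus strand. Capitals mark the cyclic AMP response element (CRE, TGACGTCA), its shorter core TGACG on either strand, and the CArG box of serum response factor.
DUSP1: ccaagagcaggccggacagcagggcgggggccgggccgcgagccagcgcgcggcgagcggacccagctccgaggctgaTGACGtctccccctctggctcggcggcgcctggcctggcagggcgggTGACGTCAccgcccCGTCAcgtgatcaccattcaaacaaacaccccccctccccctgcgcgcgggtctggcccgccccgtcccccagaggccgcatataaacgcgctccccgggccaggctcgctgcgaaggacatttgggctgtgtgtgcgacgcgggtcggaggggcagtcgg
DUSP8: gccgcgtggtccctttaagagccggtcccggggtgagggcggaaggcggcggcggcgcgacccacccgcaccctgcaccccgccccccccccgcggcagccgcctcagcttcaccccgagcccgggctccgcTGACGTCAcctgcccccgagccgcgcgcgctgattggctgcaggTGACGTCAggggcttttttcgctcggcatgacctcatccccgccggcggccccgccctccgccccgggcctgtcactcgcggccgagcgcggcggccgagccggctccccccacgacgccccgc
DUSP6: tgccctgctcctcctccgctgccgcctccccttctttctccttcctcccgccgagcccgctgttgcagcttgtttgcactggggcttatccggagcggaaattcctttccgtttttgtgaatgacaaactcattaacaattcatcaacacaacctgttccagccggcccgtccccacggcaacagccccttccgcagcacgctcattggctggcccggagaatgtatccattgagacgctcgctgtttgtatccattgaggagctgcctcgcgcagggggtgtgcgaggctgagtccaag
RefSeq promoter windows were found for 8 of the 10 members, the others being DUSP4 and DUSP5. The full CRE lay 125 bases before the start of DUSP1 and at 118 and 74 bases before that of DUSP8, and was found in 2 of the 8 members and in 1.85% of 35116 windows of the same length. The core TGACG, which overlaps the CRE, was present in DUSP1, DUSP8 and DUSP10, and in 24.6% of all windows. None of the 8 windows held the AP-1 site TGANTCA (7.71% of all windows), the ETS site CCGGAA (17.3%, searched on both strands like the others) or a CArG box (1.29%). CCGGAA is longer than the ETS core GGAA, which was not searched and stands in the DUSP6 window printed here. A match describes letters in this window, not a bound site.

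DUSP2 (PAC-1), a nuclear phosphatase best known from lymphocytes, was scarce, with 7 to 63 counts per library. HRG-BT474 at 1 h had 2.85 and 2.53 CPM against 1.24 and 0.799 in vehicle, and these groups did not overlap (log2 fold change 1.40, SE 0.27, edgeR adjusted p = 0.000587). The call was lost without vehicle replicate 2 (1.12). EGF-BT474 at 1 h had 1.97 and 1.94 CPM, with a difference of 0.93 (SE 0.27) that was not called (edgeR adjusted p = 0.0653). In BT474R the vehicle, HRG and EGF libraries at 1 h spanned 1.28 to 2.12 CPM and overlapped. HRG-BT474R at 24 h had 0.651 and 1.22 CPM against 0.423 and 0.376 in vehicle. That difference of 1.22 (SE 0.38) was not called (edgeR adjusted p = 0.0987). Between lines the HRG effect at 1 h differed by -1.63 (BT474R minus BT474, SE 0.37, edgeR adjusted p = 0.0206). Because of the low counts this difference lost its call without any of 5 libraries in turn (-1.99 to -1.35 over the libraries left out) and with DESeq2 (adjusted p = 0.0607).

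DUSP4 (MKP2), a nuclear feedback phosphatase of ERK and JNK, was the most abundant member per exon length at T0 in both lines, and its lines were far apart before any ligand. At T0 it was at 462 and 437 CPM in BT474 and at 1341 and 1299 CPM in BT474R, a log2 difference of 1.55 (SE 0.05, edgeR adjusted p = 5.32e-24). The T0 comparison of lines as a whole called 25.1% of genes higher and 21.7% lower in BT474R. In BT474 at 1 h, vehicle was at 764 and 782 CPM, EGF at 1162 and 1179, and HRG at 1244 and 1175. At 24 h, vehicle had fallen to 346 and 368 CPM, below both T0 libraries, while EGF stood at 765 and 820 and HRG at 822 and 852. The ligand effect therefore grew with time while the level with ligand declined: the log2 fold change with EGF was 0.58, 0.82 and 1.14 at 1, 12 and 24 h, and with HRG 0.64, 1.01 and 1.21, each with an SE of 0.04 and the largest edgeR adjusted p = 4.73e-15. The growth of the effect between 1 and 24 h was called for both ligands in BT474 (0.57 for each, SE 0.05).

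Every BT474R library had more DUSP4 than the BT474 libraries of the same treatment and time, at 1194 to 1875 CPM over all groups against 346 to 1244. The ligand effects on the log2 scale were smaller there. EGF-BT474R had 1875 and 1817 CPM at 1 h, 1838 and 1868 at 12 h and 1772 and 1767 at 24 h, against vehicle at 1489 and 1524, 1304 and 1374, and 1194 and 1352. These differences were 0.29, 0.47 and 0.47 on the log2 scale (SE 0.06 each, edgeR adjusted p = 0.0191, 8.83e-06 and 5.22e-06), and the call at 1 h was lost without vehicle replicate 1 (0.28), vehicle replicate 2 (0.32) or EGF replicate 1 (0.26). HRG-BT474R was called at 12 h only (0.29, SE 0.06, edgeR adjusted p = 0.00494), and not without vehicle replicate 1 (0.27). The HRG effect on DUSP4 was smaller in BT474R than in BT474 at every time, by -0.48, -0.74 and -1.03 at 1, 12 and 24 h, and the EGF effect by -0.37 at 12 h and -0.67 at 24 h. The EGF difference at 12 h lost its call without 1 library or another (-0.41 to -0.30 over the libraries left out). HRG gave slightly more DUSP4 than EGF in BT474 at 12 h (980 in both libraries against 851 and 848 CPM; 0.19, edgeR adjusted p = 0.00134; 2.17% of genes called in either direction) and less in BT474R at 24 h (1348 and 1567 against 1772 and 1767 CPM; -0.26, edgeR adjusted p = 0.00855; 5.18% of genes called). The latter call was lost without HRG replicate 1 (-0.18), EGF replicate 1 (-0.25) or EGF replicate 2 (-0.28).

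DUSP5, a nuclear phosphatase specific for ERK, was at 7.93 and 7.19 CPM in BT474 and at 21.1 and 19.7 CPM in BT474R at T0 (log2 difference 1.42, SE 0.11, edgeR adjusted p = 2.71e-13). In BT474 at 1 h, vehicle had 9.93 and 11.1 CPM, EGF 26.1 and 25.2, and HRG 38.4 and 34.5. The groups were separate, with HRG above EGF and EGF above vehicle. The fold changes were 2.40 with EGF (log2 1.27, SE 0.10, edgeR adjusted p = 6.5e-12) and 3.45 with HRG (1.79, SE 0.10, edgeR adjusted p = 9.95e-17). HRG exceeded EGF by 0.52 (SE 0.09, edgeR adjusted p = 0.000972; 0.139% of genes called in either direction), a call lost without HRG replicate 1 (0.44). At 12 and 24 h DUSP5 in BT474 remained above vehicle at 9.51 to 13.3 CPM with either ligand against 6.59 to 8.97, by 0.62 to 0.81 on the log2 scale, and the EGF call at 24 h was lost without EGF replicate 1 (0.42).

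In BT474R, DUSP5 with EGF did not peak but rose over time. EGF-BT474R had 25.7 and 27.0 CPM at 1 h, 29.9 and 29.4 at 12 h and 32.3 and 32.2 at 24 h, above vehicle libraries of 18.2 to 20.4 CPM at these times. The log2 fold change was 0.38, 0.59 and 0.79 (SE 0.07, 0.07 and 0.08), and the increase between 1 and 24 h of 0.42 (SE 0.11) was called (edgeR adjusted p = 0.0179), opposite in sign to the change of -0.65 (SE 0.16, edgeR adjusted p = 0.00811) in EGF-BT474. HRG-BT474R was higher at 1 h (27.5 and 24.8 CPM; 0.37, edgeR adjusted p = 0.0346) and 24 h (22.4 and 23.2 CPM; 0.31, edgeR adjusted p = 0.0353). These calls were fragile. EGF at 1 h lost its call without each of the 4 libraries in turn (0.35 to 0.40), HRG at 1 h without vehicle replicate 1 (0.38), vehicle replicate 2 (0.38) or HRG replicate 1 (0.30), and HRG at 24 h without vehicle replicate 1 (0.26) or HRG replicate 2 (0.28). The changes between 1 and 24 h also lost their call without 1 library or another, at 0.38 to 0.46 in EGF-BT474R and -0.84 to -0.50 in EGF-BT474. HRG gave less DUSP5 than EGF in BT474R at 12 h (-0.38, edgeR adjusted p = 0.00629; 1.42% of genes called in either direction) and at 24 h (-0.49, edgeR adjusted p = 0.000171), and the 12 h call was lost without HRG replicate 1 (-0.33) or EGF replicate 1 (-0.36). At 1 h the effect was smaller in BT474R than in BT474 for EGF (-0.91, SE 0.14) and HRG (-1.43, SE 0.14).

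DUSP6 (MKP3), the cytoplasmic phosphatase of ERK, changed most of the members over the series, from a mean of 29.6 CPM in BT474 at T0 to 524 CPM in EGF-BT474R at 24 h, a ratio of 17.7. At T0 it was at 31.2 and 28.0 CPM in BT474 and at 102 and 92.6 CPM in BT474R (log2 difference 1.71, SE 0.10, edgeR adjusted p = 6.42e-17). In BT474, EGF and HRG gave close values throughout: 84.3 and 83.8 CPM with EGF and 88.6 and 79.2 with HRG at 1 h, and 128 and 133 with EGF and 127 and 135 with HRG at 24 h. Vehicle had 49.8 and 52.9 CPM at 1 h and 32.2 and 34.9 at 24 h. Neither ligand overlapped vehicle at any time, and the ligands overlapped each other at 1 and 24 h. The log2 fold change was 0.69, 1.66 and 1.95 with EGF and 0.70, 1.75 and 1.94 with HRG at 1, 12 and 24 h (SE 0.05 to 0.06; largest edgeR adjusted p = 4.91e-12), and no HRG against EGF difference of DUSP6 was called in BT474.

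In BT474R the ligands parted. EGF-BT474R had 229 and 232 CPM of DUSP6 at 1 h, 522 and 508 at 12 h and 523 and 525 at 24 h, whereas vehicle had 120 and 116, 93.7 and 96.1, and 59.1 and 59.6. HRG-BT474R had 195 and 202 CPM at 1 h, 291 and 313 at 12 h, and 99.6 and 150 at 24 h. With EGF the 12 and 24 h libraries were alike, and with HRG both 24 h libraries were below those of 12 h and still above vehicle. The log2 fold change was 0.96, 2.44 and 3.14 with EGF (SE 0.10, 0.11 and 0.11; an 8.82-fold difference at 24 h, edgeR adjusted p = 6.76e-14) and 0.75, 1.65 and 1.09 with HRG (SE 0.10, 0.10 and 0.11; edgeR adjusted p = 5.25e-06 at 24 h). HRG against EGF was not called at 1 h, was -0.79 (SE 0.10, edgeR adjusted p = 5.56e-05) at 12 h and -2.05 (SE 0.10, edgeR adjusted p = 4.72e-11) at 24 h. The effect at 24 h minus that at 12 h was 0.70 with EGF (SE 0.15, edgeR adjusted p = 0.0502) and -0.57 with HRG (SE 0.15, edgeR adjusted p = 0.455), neither of which was called. The vehicle level itself fell by 0.70 (SE 0.11, edgeR adjusted p = 0.000191) between T0 and 24 h in BT474R.

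Between lines, the EGF effect on DUSP6 was larger in BT474R by 0.76 (SE 0.13, edgeR adjusted p = 0.000214) at 12 h and 1.18 (SE 0.13, edgeR adjusted p = 6.43e-08) at 24 h, and the HRG effect at 24 h was smaller by -0.89 (SE 0.13, edgeR adjusted p = 3.1e-05). DUSP6 was thus the 1 member whose 24 h effect differed between lines in opposite directions for the 2 ligands. All 12 ligand calls of DUSP6 stood without any 1 library. For the divergent HRG-BT474R pair at 24 h the log2 fold change was 1.33 without replicate 1 and 0.76 without replicate 2, and the line difference ranged from -1.18 to -0.60. When only the libraries compared were fitted, the HRG-BT474R difference of 1.06 at 24 h was not called (edgeR adjusted p = 0.828), nor was HRG against EGF at 24 h (-2.07, edgeR adjusted p = 0.125).

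DUSP7, the close relative of DUSP6, varied least, with a ratio of 1.78 between its highest and lowest group means. In BT474 at 1 h it was at 15.4 and 16.3 CPM in vehicle, 13.6 and 12.7 with EGF and 12.3 and 12.8 with HRG, all below the T0 libraries of 20.1 and 18.8. The fall with HRG was -0.35 on the log2 scale (SE 0.09, edgeR adjusted p = 0.0229), lost without each of the 4 libraries in turn (-0.38 to -0.29) and with DESeq2 (adjusted p = 0.0628). BT474R had 17.4 and 16.2 CPM in vehicle, 13.9 and 13.5 with EGF and 14.4 and 15.0 with HRG at 1 h, with no call. At 24 h in EGF-BT474R it was at 20.7 and 19.0 CPM against 16.4 and 16.9 (0.25, edgeR adjusted p = 0.0494), a call lost without vehicle replicate 1 (0.23), vehicle replicate 2 (0.28) or EGF replicate 1 (0.17) and with DESeq2 (adjusted p = 0.0735). The change of the effect from 1 to 24 h was called as positive in EGF-BT474 (0.46), HRG-BT474 (0.49) and EGF-BT474R (0.54).

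Among the members that prefer JNK and p38, DUSP8 was low by its plain row, which holds only part of its counts. With its rows summed, DUSP8 had a mean of 15.0 CPM in BT474 at T0, against 15.4 for DUSP10. Values of the plain row follow. In BT474 at 1 h it had 7.78 and 8.45 CPM in vehicle, 14.2 and 16.1 with EGF and 15.6 and 14.3 with HRG. The ligand groups overlapped each other and stood clear of vehicle, with log2 fold changes of 0.88 (SE 0.11, edgeR adjusted p = 1.66e-07) and 0.87 (edgeR adjusted p = 2.78e-07). EGF-BT474R had 19.5 and 19.2 CPM at 1 h and 14.4 and 14.2 at 12 h, against vehicle at 13.3 and 13.4 and at 8.74 and 9.10. Its rise was 0.53 at 1 h (SE 0.12, edgeR adjusted p = 0.0341) and 0.68 at 12 h (SE 0.13, edgeR adjusted p = 0.000685), and at 24 h the difference was 0.01. HRG-BT474R had 16.6 and 15.6 CPM at 1 h, a difference of 0.28 that was not called. The 1 h call was lost without each of the 4 libraries in turn (0.51 to 0.56), but with all DUSP8 rows summed it was 0.55 (edgeR adjusted p = 0.00239). HRG-BT474 at 12 h (0.35, edgeR adjusted p = 0.0371) lost its call without vehicle replicate 1 (0.25), HRG replicate 1 (0.34) or HRG replicate 2 (0.38), with DESeq2 (adjusted p = 0.0758) and with the rows summed (0.24, edgeR adjusted p = 0.0592). The summed rows were called at 24 h in BT474 with EGF (0.45, edgeR adjusted p = 0.00172) and HRG (0.37, edgeR adjusted p = 0.00586), where the plain row was not. In EGF-BT474R the change of the effect between 1 and 24 h was called with the rows summed (-0.45, edgeR adjusted p = 0.0441) and not with the plain row (-0.52, edgeR adjusted p = 0.0776).

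DUSP10 (MKP5) was induced at 1 h in all 4 combinations of ligand and line. BT474 had 27.3 and 24.2 CPM in vehicle, 44.6 and 46.3 with EGF and 52.0 and 50.2 with HRG. BT474R had 45.4 and 51.7 CPM in vehicle, 90.2 and 87.1 with EGF and 65.5 and 67.6 with HRG. No ligand library overlapped vehicle in either line. The log2 fold changes were 0.80 (EGF-BT474, SE 0.08, edgeR adjusted p = 8.35e-10), 0.98 (HRG-BT474, edgeR adjusted p = 3.67e-12), 0.87 (EGF-BT474R, SE 0.08, edgeR adjusted p = 9.83e-07) and 0.46 (HRG-BT474R, edgeR adjusted p = 0.0144). The last call was lost without vehicle replicate 1 (0.37), HRG replicate 1 (0.48) or HRG replicate 2 (0.44), and the HRG effect was smaller in BT474R by -0.54 (SE 0.12, edgeR adjusted p = 0.0199), a difference whose call was lost without any of 5 libraries in turn (-0.65 to -0.42 over the libraries left out). By 24 h the level with ligand, at 12.7 to 16.4 CPM in BT474 and 18.5 to 22.7 in BT474R, overlapped or lay below that with vehicle and was not called. At 12 h only EGF-BT474R was called (35.5 and 39.3 against 27.2 and 32.0 CPM; 0.33, edgeR adjusted p = 0.0197), and not without vehicle replicate 1 (0.23) or EGF replicate 2 (0.26).

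DUSP16 (MKP7) had small effects whose sign at 24 h differed by line. In BT474 at 24 h it was at 57.5 and 54.8 CPM in vehicle, 74.1 and 64.7 with EGF and 64.7 and 64.5 with HRG. In BT474R it was at 57.0 and 53.7 CPM in vehicle, 43.5 and 42.9 with EGF and 48.1 and 41.7 with HRG. Every ligand library thus lay above vehicle in BT474 and below it in BT474R. The log2 fold changes were 0.30 (EGF-BT474, SE 0.06, edgeR adjusted p = 0.000133), 0.18 (HRG-BT474, edgeR adjusted p = 0.015), -0.36 (EGF-BT474R, SE 0.07, edgeR adjusted p = 0.000651) and -0.29 (HRG-BT474R, edgeR adjusted p = 0.0244). The differences between lines were called, at -0.67 (SE 0.09, edgeR adjusted p = 5.74e-06) for EGF and -0.51 (SE 0.09, edgeR adjusted p = 0.000683) for HRG. The HRG-BT474 call was lost without vehicle replicate 2 (0.15) or HRG replicate 1 (0.17), and the HRG-BT474R call without vehicle replicate 1 (-0.26) or HRG replicate 2 (-0.19). At 1 h HRG-BT474 was called (0.24, edgeR adjusted p = 0.00748), and not without vehicle replicate 2 (0.22) or HRG replicate 1 (0.22). With all DUSP16 rows summed, EGF-BT474 was also called at 1 h (0.22, edgeR adjusted p = 0.00102) and 12 h (0.13, edgeR adjusted p = 0.031), and HRG-BT474R fell at 12 h (-0.19, edgeR adjusted p = 0.0274). The summed rows also gave a called change of the HRG-BT474R effect between 1 and 24 h (-0.33, edgeR adjusted p = 0.032).

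DUSP14 (MKP6) was the 1 member called lower in BT474R at T0 in the fit reported here. It was at 59.6 and 56.4 CPM against 108 and 103 in BT474 (log2 difference -0.87, SE 0.05, edgeR adjusted p = 1.53e-17). In BT474 at 1 h it rose from 113 and 114 CPM in vehicle to 134 and 134 with EGF (0.22, SE 0.04, edgeR adjusted p = 0.000663) and to 141 and 138 with HRG (0.29, edgeR adjusted p = 5.22e-06). At 24 h it was below vehicle in HRG-BT474 (92.3 and 98.3 against 101 and 103 CPM; -0.13, edgeR adjusted p = 0.0264) and in EGF-BT474R (44.8 and 41.6 against 50.5 and 54.6 CPM; -0.29, edgeR adjusted p = 0.00225), as it was at 12 h in EGF-BT474R (53.0 and 50.1 against 60.2 and 61.2 CPM; -0.24, edgeR adjusted p = 0.0117). The groups did not overlap in any of these, although each difference was small. The HRG-BT474 call was lost without vehicle replicate 1 (-0.13), vehicle replicate 2 (-0.11) or HRG replicate 1 (-0.09), the EGF-BT474R call at 24 h without EGF replicate 2 (-0.22), and that at 12 h without vehicle replicate 1 (-0.24), vehicle replicate 2 (-0.20) or EGF replicate 2 (-0.19). With its rows summed, DUSP14 was called higher in HRG-BT474 at 12 h (0.12, edgeR adjusted p = 0.0426), where the plain row had 0.10 and was not. HRG exceeded EGF in BT474R at 24 h by 0.23 (edgeR adjusted p = 0.0296), not called without HRG replicate 1 (0.20) or EGF replicate 2 (0.17).

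Whether an effect changed between times was tested as an interaction. Between 1 and 24 h the EGF effect in BT474 fell for 5 members (DUSP1, DUSP2, DUSP5, DUSP10 and DUSP14; 3.90% of genes called lower) and rose for DUSP4, DUSP6 and DUSP7 (4.07% higher). The HRG effect in BT474 fell for the same 5 and for DUSP8 (6.91%) and rose for the same 3 (6.65%). In BT474R the EGF effect fell for DUSP1, DUSP10, DUSP14 and DUSP16 (2.80%) and rose for DUSP5, DUSP6 and DUSP7 (3.94%), while the HRG effect fell for DUSP10 alone (0.210%). Between 12 and 24 h the effect rose further for DUSP4 in EGF-BT474 (0.290%) and HRG-BT474 (0.764%) and fell for DUSP14 in HRG-BT474 (1.73%). No member was called in this interval in BT474R with either ligand by edgeR, where 0.107% and 0.0782% of genes were called higher and lower for EGF, and 0 and 0.0288% for HRG. At an unadjusted p below 0.05 there were 5 members for EGF and 2 for HRG, and DESeq2 called 1 and 0. Of the 28 changes called over both intervals, 20 kept their call without any 1 library. Those that did not were DUSP2, DUSP5 and DUSP7 in EGF-BT474, DUSP8 in HRG-BT474, DUSP5 in EGF-BT474R and DUSP10 in HRG-BT474R between 1 and 24 h, and DUSP4 and DUSP14 in HRG-BT474 between 12 and 24 h. DESeq2 did not call that of DUSP8 (adjusted p = 0.0609).

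Whether the lines differed in an effect was tested in a fit of all 40 libraries (24641 genes). At 1 h the EGF effect was smaller in BT474R for DUSP5 (0.134% of genes lower), and the HRG effect was smaller for 6 members (DUSP1, DUSP2, DUSP4, DUSP5, DUSP10 and DUSP14; 0.495% lower). At 12 h BT474R had the larger EGF effect for DUSP6 (0.929% of genes higher) and the smaller for DUSP4 and DUSP14 (1.03% lower), and the HRG effect was smaller for DUSP4 (2.91% lower). At 24 h the EGF effect was larger for DUSP6 (1.92%) and smaller for DUSP4 and DUSP16 (2.09%), and the HRG effect was smaller for DUSP4, DUSP5, DUSP6 and DUSP16 (2.09%). Of these 18 differences, 12 kept their call without any 1 library. The others were those of DUSP4 and DUSP14 for EGF at 12 h, of DUSP2, DUSP10 and DUSP14 for HRG at 1 h and of DUSP5 for HRG at 24 h (-0.54), which was also not called with the rows of each gene summed (-0.51, edgeR adjusted p = 0.0577). No difference between lines was called for DUSP7 or DUSP8.

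**Figure D3:**
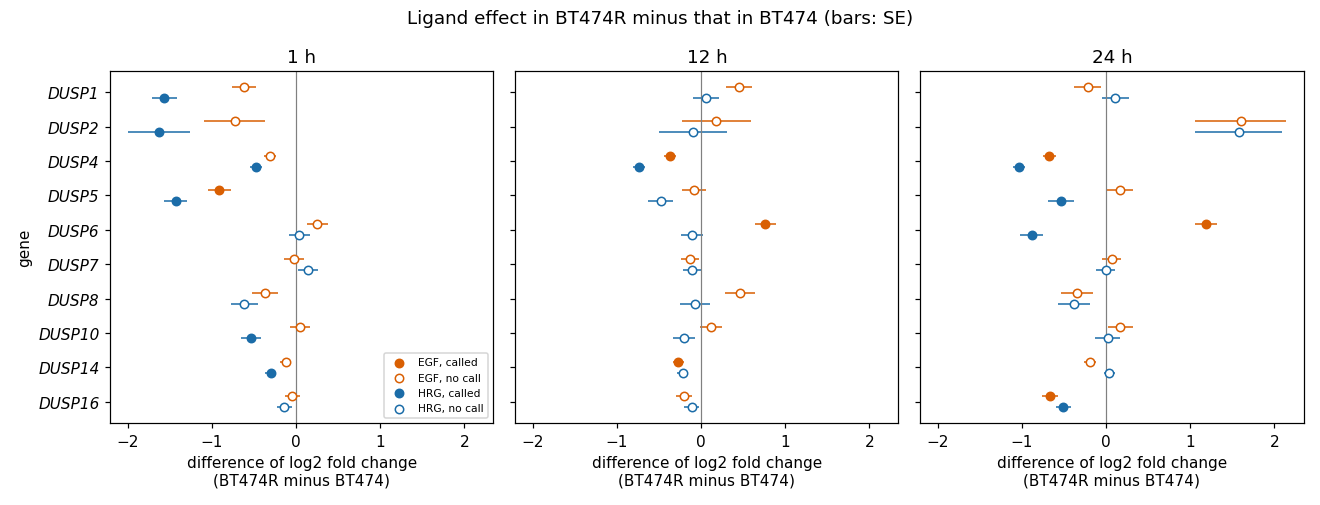
Ligand effect in BT474R minus that in BT474 (horizontal axis, difference of log2 fold changes, bars show the SE) for each DUSP gene at 1, 12 and 24 h, with EGF in orange and HRG in blue, where filled points passed edgeR's adjusted p under 0.05. At 1 h the called HRG points of DUSP1, DUSP2 and DUSP5 lie beyond -1, and at 24 h the EGF point of DUSP6 is at 1.18 and its HRG point at -0.89.

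The fresh medium of the vehicle groups was itself followed by changes. In BT474, vehicle at 1 h against T0 had 7 members higher (DUSP1, DUSP4, DUSP5, DUSP6, DUSP8, DUSP10 and DUSP16; 3.67% of genes higher) and DUSP7 lower (2.94% lower). DUSP6 rose by 0.80 (SE 0.06, edgeR adjusted p = 3.28e-12) and DUSP4 by 0.79 (edgeR adjusted p = 7.7e-19). In BT474R, DUSP8, DUSP10 and DUSP16 were higher at 1 h (1.14%), led by DUSP10 at 1.06 (edgeR adjusted p = 2.38e-07). At 12 h DUSP1, DUSP6 and DUSP10 were still above T0 in BT474 (3.15%), and at 24 h DUSP1 was higher (5.17%) and DUSP4 lower (6.23%; -0.33). In BT474R no member was called by edgeR at 12 h (3 at an unadjusted p below 0.05, 1 with DESeq2; 0.354% of genes higher and 0.774% lower), while at 24 h DUSP6 was lower (6.83%). Ligand effects above are against the vehicle of the same time, which had the same fresh medium. A change of an effect between times still holds the course of vehicle. From 1 to 24 h in BT474, mean DUSP4 fell from 773 to 357 CPM in vehicle. With EGF it fell from 1170 to 792 CPM, while the effect grew. Of 17 calls of vehicle against T0, 11 stood without any 1 library. Those of DUSP5 (0.40 to 0.55), DUSP7 (-0.33 to -0.26) and DUSP8 (0.41 to 0.53) at 1 h and of DUSP10 at 12 h (0.31 to 0.36) and DUSP1 at 24 h (0.24 to 0.48) in BT474, and of DUSP8 at 1 h in BT474R (0.61 to 0.77), did not. DESeq2 did not call the fall of DUSP7 (adjusted p = 0.0688). With rows summed, BT474 gained a rise of DUSP16 at 12 h (0.14, edgeR adjusted p = 0.0499) and a fall of DUSP8 at 24 h (-0.38, edgeR adjusted p = 0.0116).

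Before ligand, 6 of 10 members were higher in BT474R than in BT474 (DUSP1, DUSP4, DUSP5, DUSP6, DUSP8 and DUSP10; 25.1% of genes higher) and DUSP14 was lower (21.7% of genes lower). Besides those given above, the log2 differences were 0.63 for DUSP1 (36.9 and 31.7 against 21.3 and 22.9 CPM; SE 0.12), 0.59 for DUSP10 (25.3 and 21.6 against 15.8 and 15.1 CPM; SE 0.10) and 0.49 for DUSP8 (8.76 and 7.82 against 5.72 and 6.06 CPM; SE 0.14). The DUSP8 call was lost without BT474 replicate 1 (0.41) or BT474R replicate 1 (0.38). DUSP2 and DUSP7 differed by 0.01 each, and DUSP16 by -0.15 (edgeR adjusted p = 0.0631). DUSP16 was called lower under each of the 8 other settings, DESeq2 included (-0.24 to -0.15, the largest edgeR adjusted p = 0.0445 with the replicate block), and also without replicate 2 of either line but not without replicate 1. Per kilobase of annotated exon, and with all rows of a gene summed, the order in BT474 at T0 was DUSP4 (61.8 CPM per kb), DUSP14 (48.3), DUSP16 (24.7), DUSP1 (11.0), DUSP6 (7.67), DUSP10 (5.46), DUSP7 (3.44), DUSP8 (3.02), DUSP5 (2.98) and DUSP2 (0.428). In BT474R, DUSP4 led at 182 CPM per kb, followed by DUSP14 at 26.7 and DUSP6 at 25.2. Lengths came from an annotation release that need not be the authors', so neighbours in this order such as DUSP5 and DUSP8 in BT474 are not told apart.

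The genes whose level followed each member most closely over the 20 groups, after removal of each line's mean, are given as a description with Pearson's r among 13899 genes and no test, since groups share vehicle, line and time. For DUSP1 they were MCL1 (0.96), ZFP36 (0.95) and JUNB (0.95), and for DUSP8 KLF6 (0.96), RCAN1 (0.96) and JUN (0.96), several of which are immediate early transcription factors or RNA regulators. For DUSP10 they were TRIB1 (0.97), RNF39 (0.96) and RHOB (0.95), and for DUSP2 TAF5L (0.87), RNF39 (0.87) and LNX2 (0.86). DUSP5 was followed by AKIRIN1 (0.93), ITPRIP (0.92) and MAFF (0.92), and DUSP4 by LMCD1 (0.95), FHL2 (0.94) and TMEM40 (0.94). The closest likeness of all was that of DUSP6 with EZR (0.99), which encodes the cytoskeletal linker ezrin, followed by PHLDA2 (0.97) and PPP4R1L (0.95). The least inducible members were followed by other genes: DUSP7 by MYCN (0.94), CBX2 (0.93) and DPH7 (0.92), DUSP14 by GRAMD2B (0.96), LIMK2 (0.95) and HSPA5 (0.93), and DUSP16 by RALGAPA1P1 (0.94), GOLGA5 (0.93) and ZNF750 (0.92).

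The cascade on which the phosphatases act was followed through its own genes. Of 17 genes of the RAS, RAF, MEK, ERK and RSK cascade, edgeR called none at 1 h in any of the 4 combinations of ligand and line (1 at an unadjusted p below 0.05 in HRG-BT474 and 0 in the others; none with DESeq2). At 24 h, 3 were higher in EGF-BT474, 4 higher and 3 lower in HRG-BT474, 4 higher and 1 lower in EGF-BT474R, and 1 higher in HRG-BT474R. The largest of these were the kinases downstream of ERK, RPS6KA2 in EGF-BT474R (log2 fold change 0.56, SE 0.08, edgeR adjusted p = 1.41e-05) and RPS6KA3 in HRG-BT474 (0.51, SE 0.06, edgeR adjusted p = 3.25e-09). Of 11 JNK and p38 cascade genes, edgeR again called none at 1 h (0 or 1 at an unadjusted p below 0.05 and none with DESeq2 in each combination). At 24 h, 1 was higher and 2 lower in EGF-BT474, 2 and 2 in HRG-BT474, 1 and 2 in EGF-BT474R, and 1 and 1 in HRG-BT474R, and at 12 h the most were called in HRG-BT474 (4 higher and 2 lower). The JNK gene MAPK9 was the 1 gene called higher in all 4 combinations at 24 h (0.23 to 0.44). By 24 h in EGF-BT474R the p38 kinase kinase MAP2K6 had fallen by 1.25 (SE 0.12, edgeR adjusted p = 1.3e-07) and another JNK gene, MAPK10, by 0.90 (SE 0.10, edgeR adjusted p = 7.88e-07). Of all genes, 9.71% were called higher and 6.65% lower at 24 h in EGF-BT474, and 12.5% and 11.6% in HRG-BT474. In EGF-BT474R these shares were 9.95% and 7.37%, and in HRG-BT474R 1.89% and 0.889%. At 12 h in HRG-BT474 they were 13.3% and 12.5%, and those at 1 h are given above.

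Of 8 other genes widely used as transcriptional readouts of ERK, among them the Sprouty inhibitors and ETS factors, 2 were higher at 1 h in EGF-BT474, HRG-BT474 and EGF-BT474R (1.65%, 2.16% and 0.416% of all genes) and 1 in HRG-BT474R (0.169%). At 24 h, 6 were higher and 1 lower with either ligand in BT474 (9.71% of all genes higher and 6.65% lower with EGF, 12.5% and 11.6% with HRG), 6 were higher in EGF-BT474R (9.95%) and 3 in HRG-BT474R (1.89%). The largest changes at that time were in EGF-BT474R, the same group as for DUSP6: EPHA2, a receptor tyrosine kinase, rose by 2.62 (SE 0.25, edgeR adjusted p = 7.48e-08) and the ETS factor ETV4 by 2.39 (SE 0.21, edgeR adjusted p = 2.32e-08). ETV4 was not called at 1 h in any combination. Beyond these, 11 further dual-specificity phosphatase genes outside the group described here, most of them atypical, were examined, of which 10 were tested in BT474 and 9 in BT474R. At 1 h only DUSP3 in HRG-BT474 was called, and in BT474R none was called by edgeR at any time with either ligand, with 0 to 2 at an unadjusted p below 0.05 and 1 with DESeq2, in EGF-BT474R at 12 h. In BT474 at 12 h, 1 was higher and 1 lower with EGF (9.04% and 6.99% of all genes) and 2 were higher and 2 lower with HRG (13.3% and 12.5%), the latter DUSP3 (0.23) and DUSP12 (0.16) and DUSP22 (-0.39) and the scarce DUSP19 (-1.11). At 24 h, DUSP3 was higher in EGF-BT474 (0.34, SE 0.06, edgeR adjusted p = 4.13e-05) and HRG-BT474 (0.30), and DUSP22 lower in HRG-BT474 (-0.38, SE 0.10, edgeR adjusted p = 0.00328).

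The cells themselves were checked with 2 lists. Of 9 markers of luminal HER2-positive identity, 4 were higher and 4 lower at 24 h with either ligand in BT474 (9.71% of all genes higher and 6.65% lower with EGF, 12.5% and 11.6% with HRG), 4 higher and 3 lower in EGF-BT474R (9.95% and 7.37%), and 3 lower in HRG-BT474R (0.889%), led by GATA3 (-2.00, SE 0.15) and ESR1 (-1.27, SE 0.10) in EGF-BT474R. Of the 10 markers of other cell types, 7 were tested in BT474R and 6 in BT474. In EGF-BT474R 3 were higher at 12 h (VIM by 0.71, the macrophage marker CD68 by 0.77 and the basal keratin KRT5 by 1.46; median of the 7 tested 1.46, 6.85% of all genes higher) and 2 at 24 h (CD68 and PECAM1). CD68 rose by 1.36 at 24 h (SE 0.22, edgeR adjusted p = 9.65e-05) but stayed at 1.06 to 5.09 CPM over all BT474R libraries, KRT5 was at 0.231 to 2.55 CPM there (at most 65 counts), and PECAM1 was called at no more than 5 counts in any library. In BT474, VIM was lower at 24 h with EGF (-0.29) and HRG (-0.67), COL1A1 was lower at 12 h with either ligand and at 24 h with HRG (-0.35 to -0.18), VIM was higher at 1 h with HRG (0.28) and KRT5 at 12 h with HRG (2.28, at 0 to 0.521 CPM in this line). PTPRC, CD3E, PDGFRB and COL1A2 stayed at or near 0. The part of these markers in the DUSP results was not tested.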

How the data were processed

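RNA-seq was done on mRNA libraries of BT474 and BT474R, 2 per group in 20 groups. The authors deposited 1 table of raw counts per gene (featureCounts after Trim Galore 0.6.6, FastQC and MultiQC, build GRCh38.p13, per the submitters' processing notes); the annotation release and strand setting are not given in the sources used here, so reads of overlapping antisense genes may be included. Of its 44584 rows, 5078 carry the name of another row plus a numeric suffix, so that some genes are spread over several rows. No sample column was left unused.

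Counts were analysed in R 4.3.3 with edgeR 4.0.16 (limma 3.58.1): TMM scaling, genes with at least 1 count in 50% of the libraries, a quasi-likelihood fit per line over its 20 libraries, and a fit of all 40 for the T0 line contrast and line interactions. P-values are of the F test, adjusted by Benjamini-Hochberg over all genes tested, and the SE is the absolute log2 fold change divided by the square root of F. CPM use TMM factors over all 40 libraries. The authors used DESeq2 on these counts; DESeq2 1.42.0 is an alternative here. Other alternatives were DESeq2 size factors, filterByExpr, no filter, a replicate block (also within time points), 1 fit of both lines, only the libraries compared, leaving out each library and, chosen after seeing the data, summing rows of the same gene. A left-out library leaves its group with 1 library, taken to vary like the others; in the fit of both lines the trended dispersion of all libraries was reused. The fitting script was tested on simulated data.

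The rule for names took all members in every comparison, of each list (ERK cascade, JNK and p38 cascade, ERK output, other dual-specificity phosphatases, luminal identity, other cell types) the 2 called genes with the largest change at 1 or 24 h, and the 3 genes most like each member; other genes named were chosen after their values were seen. The members and lists were chosen with earlier results of these data known. Exon lengths are from GENCODE and promoters from RefSeq on GRCh38.p14.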

Additional observations from a re-analysis of the deposited data

Results flagged for a closer look

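Each result here is a ligand effect (log2 fold change against vehicle) that differed between 2 times or between the 2 lines by an interaction term in edgeR with an adjusted p below 0.05. Of 80 tests of time 28 passed, and of 60 tests of line 18 passed; the share of all genes passing each test stands in the report. No group had the 4 samples needed to look for single outlying libraries.

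The effect at 24 h minus that at 1 h was negative for several members, which differed by ligand and line. For EGF-BT474 it was -1.81 for DUSP1, -1.67 for DUSP2, -0.65 for DUSP5, -0.98 for DUSP10 and -0.32 for DUSP14. For HRG-BT474 it was -2.14 for DUSP1, -1.79 for DUSP2, -0.98 for DUSP5, -0.56 for DUSP8, -1.18 for DUSP10 and -0.42 for DUSP14. For EGF-BT474R it was -1.43 for DUSP1, -0.87 for DUSP10, -0.41 for DUSP14 and -0.52 for DUSP16, and for HRG-BT474R it was -0.60 for DUSP10. It was positive for DUSP4 (0.57 with EGF and 0.57 with HRG in BT474), for DUSP5 in EGF-BT474R (0.42), for DUSP6 (1.26 in EGF-BT474, 1.24 in HRG-BT474 and 2.18 in EGF-BT474R) and for DUSP7 (0.46, 0.49 and 0.54 in the same order). Between 12 and 24 h it was 0.32 for DUSP4 in EGF-BT474 and, in HRG-BT474, 0.19 for DUSP4 and -0.22 for DUSP14. Without any 1 library 20 of these 28 kept their call. Those lost, with their range over the libraries left out, were in EGF-BT474 DUSP2 (-2.39 to -1.26), DUSP5 (-0.84 to -0.50) and DUSP7 (0.38 to 0.55), in HRG-BT474 DUSP8 (-0.64 to -0.51) and, between 12 and 24 h, DUSP4 (0.15 to 0.24) and DUSP14 (-0.26 to -0.18), in EGF-BT474R DUSP5 (0.38 to 0.46) and in HRG-BT474R DUSP10 (-0.74 to -0.50).

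The effect in BT474R minus that in BT474 was, for EGF, -0.91 for DUSP5 at 1 h, -0.37 for DUSP4, 0.76 for DUSP6 and -0.27 for DUSP14 at 12 h, and -0.67 for DUSP4, 1.18 for DUSP6 and -0.67 for DUSP16 at 24 h. For HRG at 1 h it was -1.57 for DUSP1, -1.63 for DUSP2, -0.48 for DUSP4, -1.43 for DUSP5, -0.54 for DUSP10 and -0.30 for DUSP14. For HRG at 12 h it was -0.74 for DUSP4, and at 24 h it was -1.03 for DUSP4, -0.54 for DUSP5, -0.89 for DUSP6 and -0.51 for DUSP16. Of these 18, 12 kept their call without any 1 library. Those lost were DUSP4 (-0.41 to -0.30) and DUSP14 (-0.30 to -0.22) for EGF at 12 h, DUSP2 (-1.99 to -1.35), DUSP10 (-0.65 to -0.42) and DUSP14 (-0.34 to -0.26) for HRG at 1 h, and DUSP5 (-0.59 to -0.44) for HRG at 24 h. BT474R is 1 clone, so a difference between lines and a trait of this clone cannot be told apart.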

How the results depend on the processing

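No member's log2 fold change that was called turned its sign under any alternative (0 reversed). Over the results per member and comparison, the number on the same side of the threshold, lost and gained was 359, 7 and 10 with DESeq2, 385, 1 and 4 with DESeq2 size factors, 384, 1 and 5 with filterByExpr, 350, 6 and 34 with no filter, 294, 9 and 17 with 1 fit of both lines, 377, 2 and 11 with the rows of a gene summed, and 343, 18 and 29 with only the libraries compared. The cause of these changes was not tested.

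Counts of members called that moved by over 1.5 times are given here, with the reported count in brackets. With only the libraries compared they were, for ligand against vehicle, 6 in EGF-BT474 at 12 h [3], 7 in HRG-BT474 at 12 h [4], 5 in HRG-BT474R at 1 h [3] and 0 at 24 h [3]. For HRG against EGF they were 0 in BT474 at 1 h [1], and 2, 1 and 0 in BT474R at 1, 12 and 24 h [1, 2 and 4]. For vehicle against T0 in BT474R they were 7, 2 and 2 at 1, 12 and 24 h [3, 0 and 1]. For changes in time they were 1 for HRG-BT474 from 12 to 24 h [2], 2 for EGF-BT474R from 12 to 24 h [0] and 0 for HRG-BT474R from 1 to 24 h [1]. For differences between lines they were 4 for EGF at 1 h [1] and, for HRG, 3 at 12 h [1] and 1 at 24 h [4]. With no filter they were 5 for HRG-BT474R at 1 h [3], 2 and 5 for HRG against EGF in BT474R at 1 and 12 h [1 and 2], 6, 2 and 3 for vehicle against T0 in BT474R [3, 0 and 1], 2 for EGF-BT474 from 12 to 24 h [1], 3 for EGF-BT474R from 12 to 24 h [0], 4 and 1 for HRG-BT474R from 1 and from 12 to 24 h [1 and 0], 3 for the line difference of EGF at 1 h [1] and 2 for that of HRG at 12 h [1]. With 1 fit of both lines they were 2 for HRG against EGF in BT474R at 1 h [1], 1 for vehicle at 24 h against T0 in BT474 [2], 1 and 5 at 12 and 24 h in BT474R [0 and 1], and, for changes to 24 h, 0 in EGF-BT474 from 12 h [1], 0 in HRG-BT474 from 12 h [2], 3 in EGF-BT474R from 12 h [0], and 2 and 1 in HRG-BT474R from 1 and 12 h [1 and 0]. With DESeq2 they were 2 for HRG against EGF in BT474R at 1 h [1], 1 for vehicle at 12 h against T0 in BT474R [0], 1 for EGF-BT474R from 12 to 24 h [0], 2 for HRG-BT474R from 1 to 24 h [1] and 3 for the line difference of HRG at 12 h [1]. DESeq2 size factors gave 5 for EGF-BT474 at 12 h [3] and 1 for EGF-BT474R from 12 to 24 h [0]; filterByExpr gave 5, 1 and 2 for EGF-BT474 at 12 h [3], HRG-BT474 from 12 to 24 h [2] and the line difference of HRG at 12 h [1]; summing the rows gave 2 for HRG-BT474R from 1 to 24 h [1].

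Replicate numbers did not pair the samples throughout: the correlation of deviations between groups ran from -0.08 to 0.26 in BT474 (6 of 45 pairs of groups over 0.1) and from -0.22 to 0.38 in BT474R (10 of 45). At 24 h a shared part remained. There, vehicle with HRG, HRG with EGF and vehicle with EGF had 0.26, 0.18 and 0.13 in BT474. In BT474R they had 0.38, 0.24 and 0.02. The replicate block left 380 results on the same side, with 1 lost and 9 gained; it gave 2 members for HRG against EGF in BT474R at 1 h [1], 1 for EGF-BT474R from 12 to 24 h [0], 2 for HRG-BT474R from 1 to 24 h [1] and 2 for the line difference of EGF at 1 h [1]. With the replicate block within each time point (361, 7 and 22) the counts were 5 for EGF-BT474 at 12 h [3], 2 and 4 for HRG against EGF in BT474R at 1 and 12 h [1 and 2], 5 for vehicle at 1 h against T0 in BT474 [8], 2 for EGF-BT474 and 2 for EGF-BT474R from 12 to 24 h [1 and 0], 2 for HRG-BT474R from 1 to 24 h [1], 3 for the line difference of EGF at 1 h [1] and 2 for that of HRG at 12 h [1].

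Leaving out each library in turn gave 7 to 8, 3 to 3 and 4 to 7 members for EGF-BT474 at 1, 12 and 24 h, 7 to 9, 3 to 4 and 3 to 6 for HRG-BT474, 3 to 4, 4 to 6 and 5 to 6 for EGF-BT474R, and 1 to 2, 1 to 2 and 1 to 5 for HRG-BT474R. HRG against EGF gave 0 to 1, 1 to 1 and 0 to 0 in BT474 and 0 to 1, 1 to 2 and 2 to 4 in BT474R, and vehicle against T0 gave 5 to 7, 2 to 2 and 1 to 3 in BT474 and 2 to 3, 0 to 1 and 1 to 2 in BT474R. Changes from 1 and from 12 to 24 h gave 6 to 9 and 1 to 2 for EGF-BT474, 8 to 9 and 0 to 1 for HRG-BT474, 6 to 8 and 0 to 0 for EGF-BT474R, and 0 to 4 and 0 to 1 for HRG-BT474R. The T0 line contrast gave 6 to 8, and line differences gave 1 to 1, 1 to 2 and 3 to 4 for EGF and 3 to 6, 1 to 2 and 3 to 4 for HRG at 1, 12 and 24 h.

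Counts over all genes moved too. With only the libraries compared, EGF-BT474 at 1 h had 240 genes [550], EGF-BT474R at 1 and 12 h 279 and 5176 [111 and 2910], and HRG-BT474R at 1, 12 and 24 h 121, 566 and 0 [41, 1000 and 675]. With no filter, EGF-BT474R at 1 h had 226, and HRG-BT474R 151, 1577 and 1147; with 1 fit of both lines, HRG-BT474R had 68, 1606 and 1137. Over all alternatives, left-out libraries included, the counts ran as follows, with the reported count in brackets. For ligand against vehicle at 1, 12 and 24 h they were 240 to 769 [550], 2594 to 4821 [4030] and 2562 to 4650 [4113] for EGF-BT474, 450 to 929 [696], 4547 to 7667 [6482] and 4311 to 6579 [6062] for HRG-BT474, 63 to 279, 1450 to 5176 and 2337 to 5052 [4208] for EGF-BT474R, and 24 to 151, 386 to 1606 and 0 to 2307 for HRG-BT474R, the last 2307 without HRG replicate 1. For HRG against EGF they were 0 to 96 [35], 150 to 1242 [545] and 12 to 708 [193] in BT474 and 5 to 48 [12], 104 to 628 [345] and 0 to 2030 [1258] in BT474R. For vehicle against T0 they were 804 to 2462 [1662], 875 to 2511 [1611] and 1671 to 3260 [2866] in BT474 and 164 to 2258 [544], 138 to 1105 [274] and 1491 to 4228 [3319] in BT474R. For changes from 12 to 24 h they were 31 to 273 [130] for EGF-BT474, 345 to 908 [628] for HRG-BT474, 12 to 261 [45] for EGF-BT474R and 0 to 113 [7] for HRG-BT474R, and from 1 to 24 h 1012 to 2380 [1637] for EGF-BT474R and 5 to 821 [112] for HRG-BT474R. Differences between lines ran over 16 to 178 [34], 253 to 1282 [484] and 553 to 1138 [989] for EGF and 76 to 225 [134], 340 to 2066 [1003] and 85 to 1532 [821] for HRG. Depth limits DUSP2 most, whose counts were 7 to 63 per library.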
